A study of Hordeum vulgare with 10 samples.

Results

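The heat response of barley roots was described over all genes of the root table. Reads in genes were 39.4% of the normalised reads in heated roots and 39.6% in control roots. Roots exposed to 35.5 °C for 1 h were represented by 2 libraries, and roots of control plants kept at 22 °C also by 2 libraries. Both groups came from 2-week-old spring barley (Hordeum vulgare), cultivar Rolap, grown in a soil and sand mixture. The data set also holds 6 shoot libraries, so that 4 of its 10 libraries were used. All genes whose identifier starts with MLOC or EPlHVUG were included, which gave 24312 genes of the root table, 24211 with the first and 101 with the second prefix. The methods call the 2 root samples of each condition biological replicates. All p-values come from 2 libraries a group, and those of edgeR also draw on the spread estimated across genes. The root sample is a mixture of cell types, in which fewer cells of a type and less RNA per cell cannot be told apart.

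Plant cells answer a sudden rise in temperature within minutes. Heat shock transcription factors bind heat shock elements in the promoters of chaperone genes, whose proteins hold unfolding proteins in a state from which they can refold. Hsp90 proteins are abundant chaperones of the cytosol that also hold client proteins such as kinases and receptors. At the same time the transcription, splicing and translation of many other genes are reduced, and this general pattern is known in plants, animals and yeast. A library of RNA-Seq reads measures only relative abundance, so that reads gained by one gene are lost by others even where their number of mRNA molecules is the same.

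The deposited means of each condition were split into the whole reads of its 2 libraries. Library 1 is the library with the larger size factor, the number by which DESeq divides reads to make libraries comparable. Reads in genes came to 16641990 and 16021844 in the heated roots, against 16828645 and 16140995 in the control roots, which is nearly the same depth. The size factors were 0.854 and 0.837 for heated roots and 1.22 and 1.16 for control roots, so that they differed between the conditions although the depth did not. The root transporter genes PHT1;1, PHT1;4 and PHO1 had mean normalised counts of 98.9, 1407 and 105 in heated roots and 828, 2450 and 471 in control roots, whereas no group mean in the separately normalised shoots was above 10.3. Across genes, log-scaled counts correlated with r = 0.990 between the heated libraries, 0.991 between the control libraries and 0.951 to 0.954 between the conditions. Genes are not independent replicates, and these r values are given without a test.

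A large part of the root transcriptome differed after 1 h of heat. Of 18452 genes with enough reads for a test, 8103 (43.9%) differed between heated and control roots at an adjusted p under 0.05 (edgeR quasi-likelihood test, TMM scaling, Benjamini-Hochberg). Of these, 3971 (21.5%) were higher and 4132 (22.4%) were lower in heat. The median change was 0.93 on the log2 scale among the genes called higher and −1.01 among those called lower. Counts of calls were thus nearly balanced and typical changes were close to 2-fold in both directions.

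The balance in counts depended on the scaling. TMM assumes that most genes do not change, and it placed the median log2 fold change of all tested genes at −0.00. When each library was scaled to its total reads in genes instead, the median was −0.48. With that scaling 1918 genes (10.4%) were called higher and 9067 (49.1%) lower, and the share of higher genes among all calls was 17.5%, against 49.0% with TMM. Directions below are relative to the TMM median unless a share of reads is named.

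On the TMM scale the extremes were not balanced. Changes at least 4-fold in size were found for 748 genes called higher and 505 called lower, and changes of at least 8-fold for 355 and 142 genes. At 16-fold or more, 198 genes were higher and 46 lower. Some of these genes had no read in one condition, where a fitted fold change is not a measurement. With each such gene set to the lower bound that its reads allow, the 8-fold counts were 355 and 139. The 16-fold counts were then 197 and 42. These sizes were not counted with scaling to total reads, where the median log2 fold change was −0.48 and falls weigh more. The 5th and 95th percentiles of the log2 fold change were −1.58 and 1.74, whereas the 1st and 99th percentiles were −2.78 and 4.16. The middle of the distribution was therefore close to symmetric and the upper tail was longer. The 198 genes took 16.2% of the gene reads in heated roots, against 0.276% in control roots. The 46 genes at the other end held 0.0025% of the gene reads in heated roots, against 0.0741% in control roots.

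Whether rises or falls prevailed at a given expression level depended on how that level was defined. Genes were first placed in classes by their mean normalised count over all 4 libraries. Among the 226 genes with a mean of 10000 and more, 119 were called higher and 26 lower, and the median log2 fold change was 0.35 (−0.12 with libraries scaled to total reads). Among the 3038 genes between 1000 and 10000, 1094 were higher and 585 lower, with a median of 0.15. The 9602 genes between 100 and 1000 held 2038 higher and 2320 lower genes around a median of −0.01. In the 5348 tested genes between 10 and 100, 692 were higher and 1129 lower, with a median of −0.16. On this scale, the share of genes called higher was 52.7% in the top class and 12.9% in the class from 10 to 100, around the 21.5% of all genes tested.

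A gene that rises strongly enters a higher class through its reads in heated roots. When genes were placed by the mean of the control libraries alone, the excess of rises in the top classes was gone. Of the 159 genes with a control mean of 10000 and more, 43 were called higher and 39 lower, and the median log2 fold change was 0.06 (−0.41 with scaling to total reads). The classes from 1000 to 10000, 100 to 1000 and 10 to 100 held 706, 2110 and 872 higher genes and 764, 2393 and 927 lower genes. Their median log2 fold changes were 0.02, −0.02 and −0.07. The 5th to 95th percentile range ran from −1.33 to 1.28 in the top control class and from −1.89 to 1.97 in the class from 10 to 100. On the TMM scale, genes with many control reads were thus called higher and lower about equally often, and no gene of the top control class rose by more than 2.57 on the log2 scale.

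**Figure D1:**
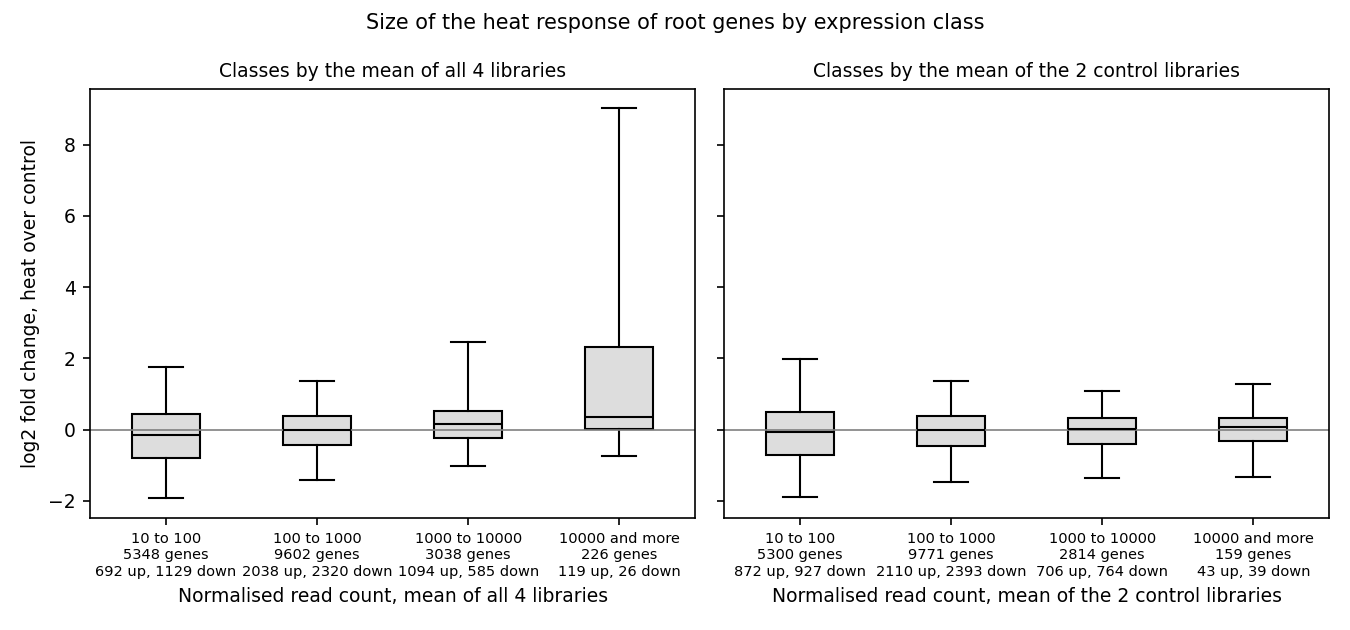
Log2 fold change of heat over control (vertical axis) in 4 classes of normalised read count (horizontal axis), with classes set by the mean of all 4 libraries on the left and by the mean of the 2 control libraries on the right. Boxes span the 25th to 75th percentile with the median as a line, whiskers reach the 5th and 95th percentile, and the numbers under each box give the genes tested and those called higher (up) and lower (down). The median of the top class is 0.35 on the left and 0.06 on the right with TMM, and −0.12 and −0.41 with scaling to total reads.

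The differences between conditions were larger than those between replicate libraries in each of the 4 classes from a mean of 10 upward. In the class of 10000 and more, set by all 4 libraries, the median absolute log2 ratio between conditions was 0.556. Between the libraries of one condition it was 0.117 in heated and 0.142 in control roots. In the class from 10 to 100 the values were 0.661 between conditions, 0.321 between heated libraries and 0.307 between control libraries. Below a mean of 10, only 238 of 3717 genes could be tested. At so low a mean, a gene passes the filter mainly where 2 libraries lie well above the other 2, so that their median of −0.94 is no property of weakly expressed genes. With classes set by the control mean the median below 10 was 1.68. It rests on 405 tested of 3310 genes, which pass the filter mainly through their heated libraries, so it is no such property either.

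The reads were redistributed over the genes to a large extent. Between the mean heated and the mean control library, 29.0% of the gene reads were moved, which is the summed gain in share of all genes that gained. The 4 pairs of a heated and a control library gave 28.7% to 29.8%. The 2 heated libraries differed from each other by 5.79% and the 2 control libraries by 6.18%. The move was thus several times larger than the spread between replicates, with all 4 pairs far above both replicate values. No test is given, since 2 against 2 libraries cannot give an exact permutation p below 0.333.

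On the scale of DESeq normalised counts the same data read differently. There the summed gain was 53.6% of the control total and the summed loss 14.1%, because the size factors of heated roots are smaller at nearly equal depth. No spike-in of known amount is named in the methods, so that the libraries do not show which scale is nearer to the number of mRNA molecules per root.

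**Figure D2:**
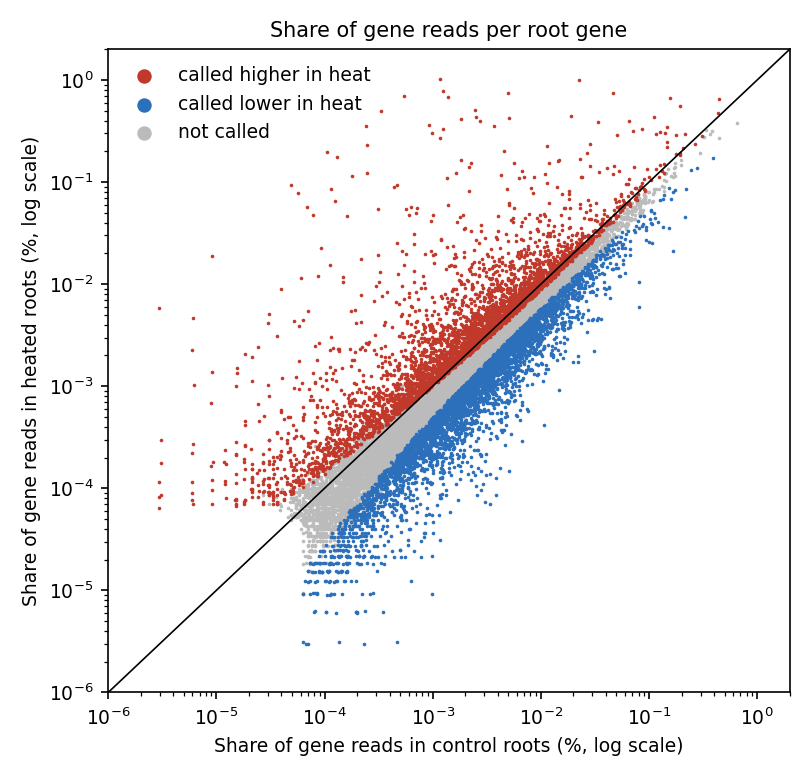
Share of gene reads of each root gene in heated roots (vertical axis, %, log scale) against control roots (horizontal axis, %, log scale), each the mean of 2 libraries. Tested genes with reads in both conditions are drawn, red for the 3971 called higher in heat except 3 without control reads, blue for the 4132 called lower except 6 without reads in heat, and grey for those not called. The line marks equal shares, and the grey band lies mostly under it.

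The gain was carried by few genes and the loss by many. A larger share in heated roots was found for 5792 genes and a smaller share for 16156 genes. The 35 genes with the largest gains made up 50% of the whole gain, while 761 genes were needed for 50% of the loss. For 25% the numbers were 11 and 156 genes, and for 75% they were 122 and 2582 genes. The 35 genes took 16.5% and 15.9% of the gene reads in the heated libraries, against 1.42% and 1.63% in the control libraries. All 35, chosen by their gain in these same libraries, were called higher, beside 21.5% of all genes tested. Their log2 fold changes ran from 1.00 to 11.32, with a median of 7.04. Their median rank by share in control roots was 4679, so that most of these 35 genes were not among the abundant genes of control roots.

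**Figure D3:**
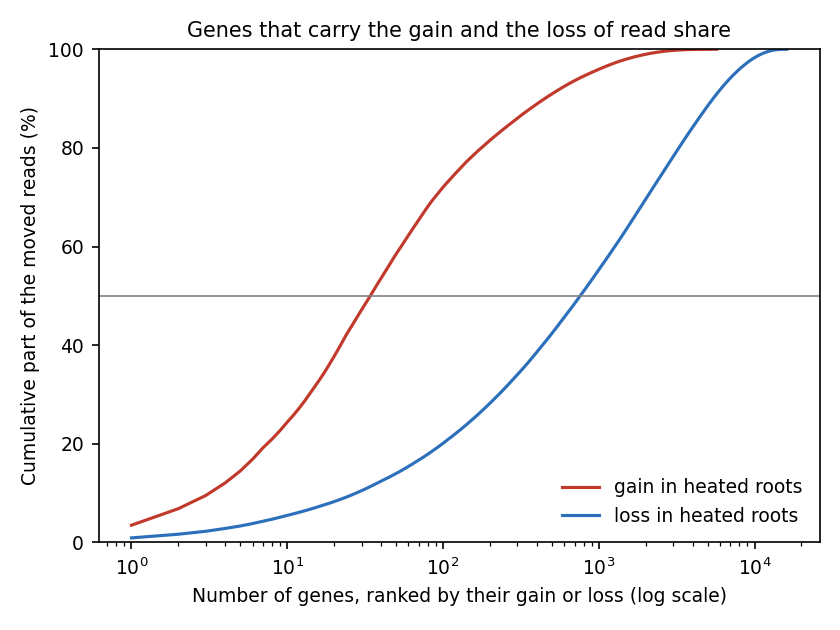
Cumulative part of the gained (red) and lost (blue) share of gene reads in heated roots, in % (vertical axis), against the number of genes ranked by their own gain or loss (horizontal axis, log scale). The red line crosses 50%, drawn in grey, at 35 genes and the blue line at 761 genes.

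By call, the 3971 higher genes together held 53.9% of the gene reads in heated roots and 25.3% in control roots. The 4132 lower genes held 10.2% in heated and 25.7% in control roots. The tested genes that were not called held 35.9% in heated and 48.9% in control roots. The median change of all tested genes is near 0 on the TMM scale. Of the genes tested and not called, 9610 lost share. They made up 44.8% of the whole loss, whereas the genes called lower made up 53.4%. A further 528 genes called higher had a smaller share of reads in heated roots. A fall in share and a call of lower expression are therefore different quantities in these libraries.

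The largest gain was that of Hsp90.1 (MLOC_5618), the heat marker of the study, which encodes an Hsp90 chaperone. It had 158900 and 172563 reads in the heated libraries, against 252 and 139 in the control libraries. Its share of gene reads was 0.955% and 1.08% in heated roots and 0.0015% and 0.00086% in control roots, and it moved to rank 1 in heated roots, against rank 10841 in control roots. The log2 fold change was 10.22 ± 0.30 (SE, here and below back-calculated from the test statistic, adjusted p = 9.3e-07 by edgeR).

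The next gains belong to genes for which no name was at hand. MLOC_14228 had 155431 and 169563 reads in heated roots, against 3516 and 3904 in control roots. MLOC_72334 had 129483 and 124757 reads in heated roots, against 246 and 170 in control roots. MLOC_5001 had 122589 and 121942 reads in heated roots and 865 and 768 in control roots. These genes were chosen by their gain in the same libraries, so the distance between heated and control libraries is no separate sign. Within each condition the libraries were close together except for MLOC_72334, whose control libraries had normalised counts of 201 and 147. The log2 fold changes were 5.94 for MLOC_14228, 9.75 for MLOC_72334 and 7.72 for MLOC_5001.

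MLOC_18664 had 128658 and 115818 reads in heated roots, against 7860 and 7386 in control roots. MLOC_77985 had 114917 and 112428 reads in heated roots, against 124 and 55 in control roots. MLOC_4447 had 111148 and 109130 reads in heated roots and 264 and 198 in control roots. The 3 genes reached similar shares under heat, between 0.668% and 0.773% per library, from control ranks of 307, 13773 and 10109. MLOC_55999 had the highest control rank of the 8 genes with the largest gains, at rank 37. It had 105712 and 111848 reads in heated roots and 24380 and 27120 in control roots, with a log2 fold change of 2.57 ± 0.13 (SE, edgeR adjusted p = 9.6e-06).

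The largest losses of share were smaller and began from the most read genes. The largest single loss was 0.267 percentage points, against a largest gain of 1.01 points, and the 10 largest losses summed to 1.59 points, against 7.08 points for the 10 largest gains. MLOC_69140, the most read gene of control roots, had 65635 and 58930 reads in heated roots, against 111472 and 102428 in control roots. Its log2 fold change of −0.29 was not called (edgeR adjusted p = 0.059), although its groups do not overlap in reads. Scaled to total reads the change was −0.77 (adjusted p = 0.00061), and the gene was also called without the filter on low counts and with a minimum mean of 50. MLOC_76000 likewise had 45252 and 43878 reads in heated roots, against 74470 and 72513 in control roots, and was not called (log2 fold change −0.23, edgeR adjusted p = 0.092), whereas with scaling to total reads it was called lower (−0.71, adjusted p = 0.00068).

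The other 6 of the 8 largest losses were called lower. MLOC_70664 fell most among them, with 3444 and 3522 reads in heated roots and 27685 and 26905 in control roots. Its log2 fold change was −2.48 ± 0.10 (SE, edgeR adjusted p = 3.8e-06), and it stood at rank 704 in heated roots, against rank 33 in control roots. MLOC_73371 had 7793 and 7130 reads in heated roots, against 36553 and 33876 in control roots. MLOC_61720 had 6291 and 5269 reads in heated roots, against 26818 and 23918 in control roots. These 3 genes and MLOC_66415 left the list of the 100 most read genes. The changes of MLOC_75846, MLOC_73299 and MLOC_66415 were smaller, at −0.70, −0.57 and −0.90 on the log2 scale.

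**Figure D4:**
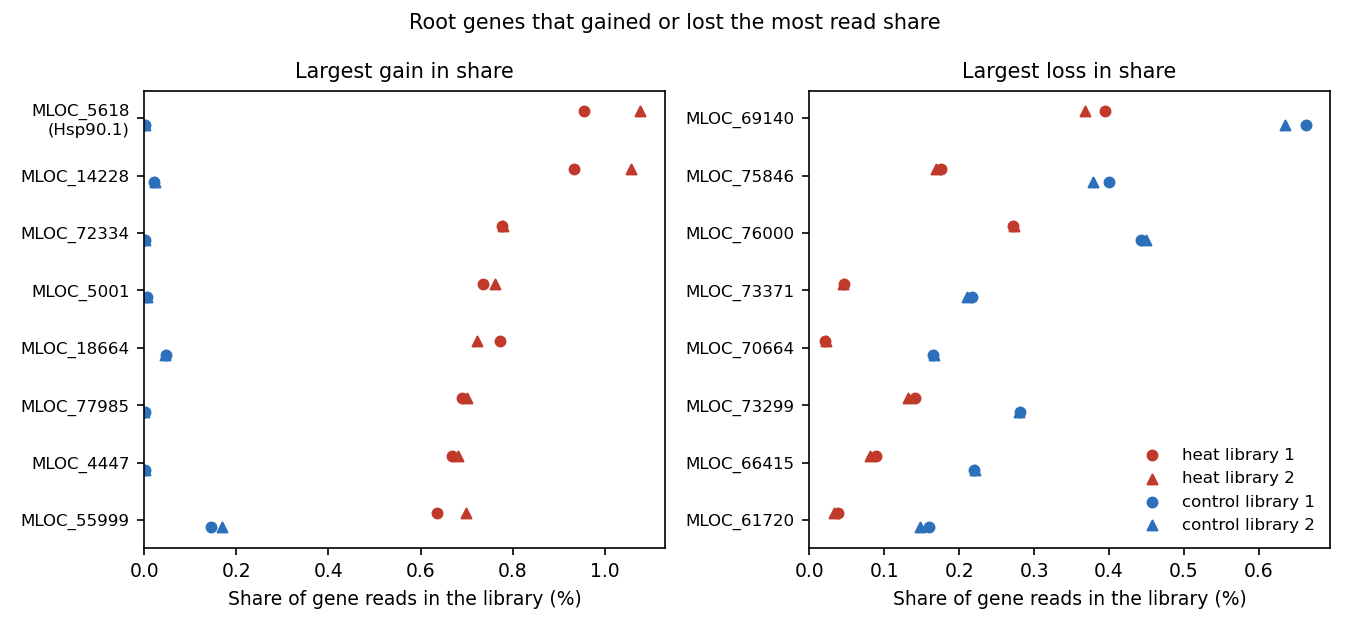
Share of gene reads (horizontal axis, %) in each of the 4 root libraries for the 8 genes with the largest gain (left) and the 8 with the largest loss in share (right). Red marks are heated and blue marks control libraries, circles library 1 and triangles library 2. For all 16 genes, which were chosen by this difference, the heated and the control libraries do not overlap. The axes of the panels differ in range.

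Reads were concentrated on fewer genes in heated roots. The 100 most read genes of each library took 28.5% and 27.9% of the gene reads in the heated libraries, against 16.6% and 16.8% in the control libraries. The difference was 11.5 percentage points (28.2 ± 0.40 in heat and 16.7 ± 0.13 in control, mean ± SD, n = 2 each, exact two-sided permutation p = 0.333, the smallest possible). The 10 most read genes took 7.34% and 7.79% in heated and 4.05% and 4.13% in control roots. To reach 50% of the gene reads, 527 and 551 genes were enough in the heated libraries, against 1056 and 1043 in the control libraries. To reach 90%, 5881 and 5981 genes were needed in heat and 7242 and 7303 in control roots. The number of genes with at least 1 read was alike, at 20839 and 20753 in heated and 20892 and 20828 in control roots.

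**Figure D5:**
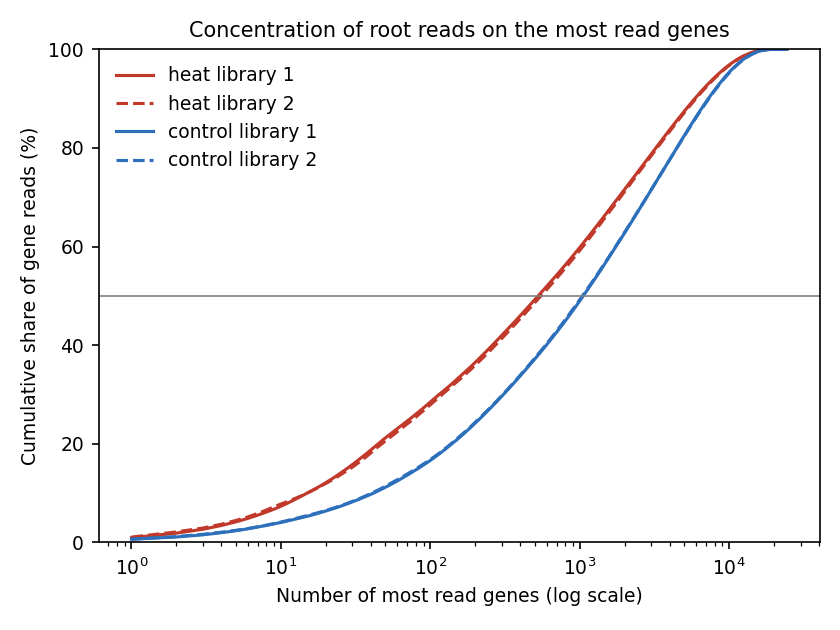
Cumulative share of gene reads (vertical axis, %) against the number of most read genes, ranked in each library (horizontal axis, log scale), for 2 heated (red) and 2 control (blue) libraries. The red lines cross 50%, drawn in grey, at 527 and 551 genes and the blue lines at 1056 and 1043 genes. Libraries of one condition nearly coincide.

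The set of abundant genes was partly replaced. Of the 10 genes with the highest share of reads, 1 was common to heated and control roots, and of the first 100 genes 46 were. Of the first 500 genes, 345 (69.0% of each list) were common, and of the first 1000 genes 721 (72.1%). Between the 2 heated libraries 8, 92, 476 and 942 genes were common to lists of these sizes, and between the 2 control libraries 9, 90, 467 and 932. The replacement was thus largest at the top of the list and beyond the difference between replicates at all 4 sizes.

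The 54 genes that entered the first 100 in heated roots were all called higher, beside 21.5% of all genes tested. They were picked by their share in these same libraries, so the calls are no separate support. These 54 genes held 17.0% of the gene reads in heated roots, against 0.928% in control roots, and their median control rank was 4275.5. Of these, 24 came from outside the first 5000 genes of control roots, the farthest from rank 17569. The 54 genes that left the first 100 moved far less. Their median rank in heated roots was 171 and the lowest was 704. Of these genes, 25 were called lower, 24 were not called and 5 were called higher, beside 22.4% lower and 21.5% higher among all genes tested. Together the 54 genes that left held 3.64% of the gene reads in heated roots and 6.48% in control roots. The 46 genes common to both lists held 11.2% in heated and 10.2% in control roots. The 100 genes most read in control roots as a whole differed by −1.88 percentage points of share, heat minus control.

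The gene that stayed among the first 10 was MLOC_73301, at rank 9 in heated and rank 2 in control roots. It had 85760 and 123968 reads in heated roots, against 56858 and 89796 in control roots, so that in reads the lower heated library overlapped the higher control library. Its log2 fold change was 1.00 ± 0.27 (SE, edgeR adjusted p = 0.020), and it was not called when libraries were scaled to total reads (0.53, adjusted p = 0.12) or by DESeq2 (1.00, adjusted p = 0.075). MLOC_12446, the fourth most read gene of control roots, had 77805 and 75699 reads in heated roots, against 73757 and 70228 in control roots. Its share was nearly equal, at 0.470% in heated and 0.437% in control roots. With TMM it was called higher (log2 fold change 0.58, edgeR adjusted p = 0.0030), and with scaling to total reads it was not (0.11, adjusted p = 0.36).

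Few genes were switched on or off in the strict sense. A gene counted as switched on where it had 0 reads in both control libraries and at least 10 in each heated library, and as switched off in the opposite case. By this rule 4 genes were switched on and 6 off, among 21948 genes with a read. The background of calls is 21.5% higher and 22.4% lower among the tested genes. The 4 genes switched on held 0.00051% of the reads in heated roots, and the 6 switched off held 0.00099% of the reads in control roots. A further 2364 genes had no read in any of the 4 libraries. Reads in heated roots alone were found for 541 genes, with a median of 2 reads in all, and reads in control roots alone for 599 genes, with a median of 1 read. At such counts an absence cannot be told from a low level.

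MLOC_29361 had 45 and 22 reads in heated roots and none in control roots. Against a floor of 3 reads over both control libraries it was at least 31.5-fold higher in heat. MLOC_65382 had 26 and 21 reads in heated roots and was at least 22.1-fold higher. MLOC_2995, with 13 and 13 reads, and MLOC_9224, with 10 and 16, were at least 12.2-fold higher. All but MLOC_9224, which had too few reads for the test, were called higher by edgeR. The rule picked these genes by the same reads, so the calls are no separate support.

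Among the genes switched off, MLOC_58437 had no read in heated roots and 53 and 55 in control roots. It was at least 25.6-fold lower in heat. MLOC_17545, with 47 and 38 reads in control roots, was at least 20.1-fold lower. MLOC_35028, MLOC_4945 and MLOC_53016 were at least 10.9-, 7.81- and 6.86-fold lower, from 13 to 33, 16 to 17 and 14 to 15 reads in control roots. MLOC_43396, the remaining gene, had 12 and 13 reads in control roots and was at least 5.92-fold lower. All 6 were called lower by edgeR, which again adds no support, since the rule used the same reads. These counts depend on the rule. With at most 1 read allowed in each library of the off state, 14 genes were switched on and 20 off, and with at least 20 reads required in the on state 2 and 2. They also depend on single libraries, since leaving out any one gave 5 to 20 genes switched on and 9 to 18 switched off.

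Genes with large rises mostly had some reads before heat. Of the 79 genes called higher with a change of at least 64-fold, 3 had no read in control roots, and the median was 49 reads summed over both control libraries. Of the 8 genes called lower to that degree, 6 had no read in heated roots. A set of 9 genes, chosen after their values were seen, had at most 20 reads in each control library and a normalised count of at least 1000 in each heated library. No gene showed the reverse. The most read of them was MLOC_78762, with 12100 and 18027 reads in heated roots, against 6 and 10 in control roots, at rank 119 in heated and 18581 in control roots. MLOC_44848 and MLOC_68435 followed, with 14695 and 10739 and with 10198 and 8265 reads in heated roots, against 13 and 6 and 14 and 9 in control roots. Together the 9 genes took 0.332% of the gene reads in heated roots.

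Among genes with a mean normalised count of at least 50, 3560 were called higher and 3439 lower. The largest fitted rise was that of MLOC_69997, which had 3165 and 2974 reads in heated roots and 2 and 1 in control roots. With 3 control reads in all, the ratio was 2883 with a 95% counting interval of 986 to 13982. MLOC_34435 had 1000 and 927 reads in heated roots and 1 and 0 in control roots. Its ratio of 2714 had an interval of 487 to 107269. MLOC_78762 also belongs to the 5 largest rises. These intervals cover counting error only, and show that the order among the largest rises rests on a handful of control reads.

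MLOC_66477 had more reads, 28572 and 35507 in heated roots, against 25 and 10 in control roots, with a log2 fold change of 11.32 ± 0.31 (SE, edgeR adjusted p = 6.9e-07). MLOC_2337 had 97241 and 64361 reads in heated roots, against 89 and 22 in control roots. Its log2 fold change was 11.00 ± 0.54 (SE, edgeR adjusted p = 9.6e-06), and its control libraries differed from each other more than its heated libraries. It took rank 12 in heated roots, against rank 15150 in control roots.

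The largest falls concerned genes with few to moderate reads. MLOC_7133 had 1 and 2 reads in heated roots and 220 and 104 in control roots, a ratio of control over heat of 76.7 with a 95% counting interval of 26.0 to 374. MLOC_71159 had 11 and 12 reads in heated roots, against 552 and 562 in control roots. MLOC_10116 had 12 and 16 reads in heated roots and 605 and 666 in control roots. Their log2 fold changes were −5.10 ± 0.20 and −5.01 ± 0.22 (SE, edgeR adjusted p = 3.6e-06 and 5.3e-06). The last 2 of the 5 largest falls were MLOC_70239, with 3 and 4 reads in heated roots, against 157 and 165 in control roots, and MLOC_70904, with 13 and 11 reads in heated roots, against 408 and 594 in control roots. In all 5 genes, which were chosen by their falls, the groups were far apart. None of the 5 genes had been among the 5000 most read genes of control roots.

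The phosphate genes that the study follows are part of this response. Of 10 such genes, 6 were called lower, 1 was called higher and 3 were not called, beside 22.4% lower and 21.5% higher among all genes tested. The study follows them in these same samples, so they are no independent sign of a direction. Their median log2 fold change was −0.66, against −0.00 for all genes tested, and they held 0.0279% of the gene reads in heated and 0.0609% in control roots. With libraries scaled to total reads, 8 were called lower and 1 higher, beside 49.1% lower and 10.4% higher among all genes tested with that scaling.

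Among the transporters, the uptake transporter PHT1;1 (MLOC_28370) fell most, with 77 and 90 reads in heated roots, against 982 and 989 in control roots. Its log2 fold change was −3.07 ± 0.15 (SE, edgeR adjusted p = 8.6e-06), which was rank 71 among the 3439 falls. Per the study, this identifier has the same sequence as PHT1;1, PHT1;2 and PHT1;9, so that its reads are the joint signal of these transporter genes. PHO1 (MLOC_12153), which in Arabidopsis loads phosphate into the xylem, had 87 and 90 reads in heated roots, against 581 and 542 in control roots, with a log2 fold change of −2.17. SPX-MFS (MLOC_57566), whose rice relatives transport phosphate across the vacuolar membrane, had 16 and 14 reads in heated roots, against 83 and 88 in control roots, with a log2 fold change of −2.02. PHT1;4 (MLOC_6187) and PHT1;6 (MLOC_80912) fell by 0.81 and 0.76 on the log2 scale, the second no longer called without heat library 1 (−0.61, edgeR adjusted p = 0.064, with the spread taken from the control libraries alone).

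Apart from NLA, the regulators moved less. PHO2 (MLOC_53410), a ubiquitin-conjugating enzyme that in Arabidopsis acts in the degradation of phosphate transporters, had 1541 and 1459 reads in heated roots, against 3143 and 3054 in control roots, with a log2 fold change of −0.56 (edgeR adjusted p = 0.0032). NLA (MLOC_52462), a ubiquitin ligase of the same process, was the gene called higher. It had 171 and 142 reads in heated roots, against 78 and 79 in control roots, with a log2 fold change of 1.48 ± 0.19 (SE, edgeR adjusted p = 0.00085). PHR1 (MLOC_5585) and PHR2 (MLOC_60198), genes of transcription factors that in Arabidopsis and rice act in phosphate starvation, had log2 fold changes of 0.07 and 0.04. For SIZ1 (MLOC_38182), the gene of a SUMO ligase, the value was −0.19, and none of the 3 genes was called. With scaling to total reads, PHR1 (−0.41, edgeR adjusted p = 0.021) and SIZ1 (−0.67, adjusted p = 0.0027) were called lower and PHR2 was not (−0.44, adjusted p = 0.052), so that the sign for PHR1 and PHR2 depends on the scaling.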

How the data were processed

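RNA from roots was made into strand-specific libraries after oligo(dT) selection. Per the methods, TopHat2 was used for mapping to the barley genome of Ensembl Plants, HTSeq for counting and DESeq for comparing the conditions, with versions not given in the sources used here. For each gene, the deposited tables hold as signal the mean normalised read count of each condition, beside a fold change, p-value and adjusted p-value of the authors' comparison, which were not used.

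Each root mean is a sum of whole reads of 2 libraries, each divided by its size factor. All 21349 heat and 21407 control means above 0 split into a single pair of whole reads, and 0 of 2000 shifted means a group did so. Shoot means served only to check 3 root markers. Lines without a gene name, which were left out, held 60.6% of the normalised reads in heat and 60.4% in control roots.

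Reads were tested with edgeR 4.0.16 (quasi-likelihood test, TMM, filterByExpr, Benjamini-Hochberg) in R 4.3.3. DESeq2 1.42.0, other scalings, filters and thresholds and leaving out each library were alternatives. The scripts were tested on simulated data in which 200 genes changed, far fewer than were called here, so that the test does not cover a change of this extent. Named genes are the 5 largest rises and falls among called genes with a mean of at least 50, the 8 largest gains and losses of share, the 5 most read genes of each condition, the 5 most read genes switched on or off, and the genes the study follows. The members, lists and rules were chosen with earlier results of these data known. The identifiers matched 0 entries of the RefSeq gene table at hand, so that positions, lengths and sequences were not analysed here. A share of reads also reflects transcript length, and shares are therefore compared between conditions and not as expression levels between genes. Counting intervals (exact Clopper-Pearson, 95%) and the floor of 3 reads cover counting error only.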

Additional observations from a re-analysis of the deposited data

Results flagged for a closer look

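Reads with more than one alignment, which enter no gene, made up 4.04% of the normalised reads in heated roots and 2.82% in control roots. Set against 100 reads in genes there were 10.5 and 9.98 such reads in the heated libraries and 7.44 and 6.79 in the control libraries, so that the groups do not overlap. These reads lie outside every count given for single genes. Their part in the results was not tested.

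Besides the lines for reads assigned to no single gene, the deposited root table holds a line named MADS57. It follows neither identifier pattern and was left out of the genes. It had 6501 and 5012 reads in the heated libraries and 1535 and 1085 in the control libraries, with a mean normalised count of 6802 in heat and 1096 in control roots.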

How the results depend on the processing

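No paired analysis was possible because the recovered libraries carry no replicate letter. Scaling to total reads gave 1918 genes called higher and 9067 called lower, against 3971 and 4132. An adjusted p under 0.01 left 2578 and 2508 genes, and a log2 fold change of at least 1 left 1856 and 2095. DESeq2's size factors, DESeq2 itself (3313 and 3118), no filter and a minimum mean of 50 kept both counts within 1.5 times, and so did leaving out each library in turn (3115 to 3903 higher and 3175 to 4037 lower). With a library left out, its condition has 1 library, which is assumed to vary like the 2 of the other condition. The share of reads moved was 25.7% without the 10 most read genes of heated roots, 53.6% (gain) and 14.1% (loss) on normalised counts, and 29.0% to 29.5% with a library left out. With an on state of 5 reads, 13 genes were switched on and 18 off, with 20 reads 2 and 2, and with up to 1 read in the off state 14 and 20. With a library left out these counts were 5 to 20 and 9 to 18, as a rule on fewer libraries is easier to meet. The difference in share of the most read genes was 3.47 points for 10 genes, 10.4 points for 1000 genes, −1.88 points for 100 genes ranked on control roots, and 11.2 to 11.8 points with a library left out. The genes common to the most read lists were 46 for 100, 721 for 1000 and 342 to 353 for 500 with a library left out. The median log2 fold change of the top class was 0.060 with classes by the control mean, −0.12 with scaling to total reads, and 0.35 to 0.38 with a library left out. For the lowest class these were 1.68, −1.41 and −0.72 to −0.21. Of 401 values of 46 named genes, 386 kept their direction and side of the threshold, 4 lost the call, 5 gained it and 6 changed sign. Settings in which a gene was not tested gave no value, as for MLOC_2995 with either heated library left out. The sign changed for PHR1 (MLOC_5585) and PHR2 (MLOC_60198), not called with all libraries, with scaling to total reads (−0.41 and −0.44). With a library left out they ranged between −0.012 and 0.15 for PHR1 and between −0.11 and 0.20 for PHR2. Apart from the construction named, the cause of these shifts was not tested. Depth limits the genes under a mean of 10, of which 238 of 3717 were tested, or 405 of 3310 by the control mean.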

Other observations

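Some genes with very large rises had unequal reads in the control libraries. MLOC_26766 had 28049 and 29153 reads in heated roots, against 41 and 3 in control roots, and MLOC_10834 had 59727 and 55972 reads in heated roots, against 65 and 15. MLOC_25990 had 25868 and 14529 reads in heated roots, against 72 and 11 in control roots. These genes were chosen after their values were seen. Over all 198 genes called higher by at least 16-fold, however, 97 were higher in control library 1, the median log2 ratio of the control libraries was 0, and the summed share was 0.274% and 0.278%.

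The genes with an EPlHVUG identifier were a small part of the libraries. Of 101 such genes, 51 had a read, 17 were tested and 2 were called higher, with 0 called lower, beside 21.5% higher and 22.4% lower among all genes tested. They took 0.00995% and 0.0232% of the gene reads in the heated libraries and 0.0261% and 0.0207% in the control libraries, and EPlHVUG00000010038 had the most reads in all 4 libraries.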
